A study of Mus musculus with 6 samples.

Results

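The subunits of the respiratory chain and of the ATP synthase were read from the gene names of 1 deposited count table, as Sdha to Sdhd, as names that begin Uqcr, Cox4 to Cox8, Atp5 or Nduf with a, b, c, s or v and a number, and as the mitochondrially encoded mt-Nd, mt-Co, mt-Cytb and mt-Atp genes, leaving out names marked as pseudogenes. The rule found 96 of 17546 genes, of which 83 are encoded in the nucleus and 13 in the mitochondrial genome. Complex I held 46 of them, complex II 4, complex III 9, complex IV 18 and complex V 19. The samples were 6 bulk RNA-seq libraries of group 2 innate lymphoid cells (ILC2s), isolated by sorting from BALB/c mouse lung. One group was exposed to 10 µM Yoda1, a small molecule that opens the mechanosensitive calcium channel Piezo1, for 24 h (Yoda1 4, 5 and 6). The other received DMSO, the solvent (DMSO 1, 2 and 3). The mice of both groups had received 3 intranasal doses of 1 µg of IL-33, and the culture medium of both groups held 10 ng/mL of IL-2 and 10 ng/mL of IL-7. The study's design text and the treatment column of the deposited table call the 3 control libraries PBS, where the sample labels say DMSO, and the sample labels were followed. The sources used here do not give the age or sex of the mice, or whether cells of several mice were pooled.

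The respiratory chain passes electrons through protein complexes of the inner mitochondrial membrane and pumps protons, and complex V, the ATP synthase, uses the proton gradient to make ATP. Most subunits are encoded in the nucleus and imported. A few membrane subunits of complexes I, III, IV and V are made inside the mitochondrion from a small circular genome. That genome is transcribed as long precursors that are cut into shorter RNAs. ILC2s are lymphocytes of barrier tissues that release type 2 cytokines, and activated ILC2s are known to use oxidative phosphorylation.

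The libraries held 14214048 to 31627519 counts. Levels are in CPM, the counts divided by the TMM-scaled library total, and a gene with no count in the shallowest library could have had up to 0.211 CPM (3 counts of its total, covering counting error only). The labels do not say whether the 3 libraries of each group represent separate mice or cultures, and DMSO 2 and DMSO 3 share a label number (19), as Yoda1 4 and Yoda1 5 do (21). The p-values therefore measure the spread between these libraries, which may be technical. Gata3, a defining ILC2 gene, had 1032, 962 and 781 CPM in Yoda1 4, 5 and 6 and 975, 922 and 991 CPM in DMSO 1, 2 and 3. Thy1, another ILC2 marker, was low in all libraries, at 0.115 to 2.87 CPM. Yoda1 6 stood apart from Yoda1 4 and 5 in the respiratory chain subunits, with higher levels of short nuclear transcripts and less mt-Co1.

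Part of the mitochondrial transcripts is given here as sequence, because 2 features of it bear on the counts. The genes mt-Atp8 and mt-Atp6, both for subunits of the ATP synthase, overlap in the mitochondrial genome. An array of near-identical nuclear copies lies on chromosome 1. The sequences are from GENCODE M21 on GRCm38, 5′ to 3′. The mt-Atp8 gene is shown whole (chrM:7766-7969, + strand). The first 120 bases follow for mt-Atp6 (chrM:7927-8046, + strand) and for its nuclear copy Gm10925 (chr1:24614532-24614651, - strand). Capitals mark the 43 bases that the end of mt-Atp8 shares with the start of mt-Atp6.
mt-Atp8: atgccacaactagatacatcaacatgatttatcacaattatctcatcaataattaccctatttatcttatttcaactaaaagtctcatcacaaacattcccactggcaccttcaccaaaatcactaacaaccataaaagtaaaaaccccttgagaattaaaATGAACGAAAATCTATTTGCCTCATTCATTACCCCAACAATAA
mt-Atp6: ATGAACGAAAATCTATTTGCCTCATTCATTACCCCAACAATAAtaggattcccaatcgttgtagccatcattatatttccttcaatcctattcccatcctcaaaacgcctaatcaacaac
Gm10925: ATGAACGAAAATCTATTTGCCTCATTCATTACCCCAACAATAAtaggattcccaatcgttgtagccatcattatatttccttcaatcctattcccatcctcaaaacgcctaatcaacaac
A read inside the capitals lies in both mt-Atp8 and mt-Atp6. A read from either of the last 2 sequences cannot be placed by these bases, since they are the same.

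The copies are 7 genes annotated as unprocessed pseudogenes between bases 24611535 and 24616197 of chromosome 1 (GRCm38). They match 7 of the 13 mitochondrially encoded subunits over at least 200 bases and at 99% identity or more, and 5 of the 7 are identical over the aligned bases. Gm10925 matches mt-Atp6, Gm29216 the 3′ part of mt-Co1, Gm28661 mt-Co2, Gm28437 mt-Co3, Gm28438 mt-Nd3, Gm28439 part of mt-Nd4 and Gm10222 mt-Nd4l. The deposited table gave them counts: Gm10925 held 37.6% to 43.7% of the counts of its pair with mt-Atp6 over the 6 libraries, and Gm28437 held 54.6% to 60.4% of its pair with mt-Co3. The sources used here do not say how the counting method divided such reads, so the level of each of these 7 genes is uncertain, and the changes below were also computed with the copy's counts added. The other 6, mt-Nd1, mt-Nd2, mt-Nd5, mt-Nd6, mt-Cytb and mt-Atp8, had no such copy in the table. The last 43 bases of mt-Atp8 are also the first bases of Gm10925, so the level of mt-Atp8 is uncertain too. Only genes of the table were searched for copies, and the bases of chromosome 1 between them were not.

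Of the 96 subunits, 94 had enough counts to be tested. With Yoda1, 0 rose and 2 fell, mt-Atp6 and mt-Cytb, under edgeR's quasi-likelihood test (Benjamini-Hochberg adjusted p under 0.05, over 13325 genes). Over all tested genes that test called 1.49%, with 0.923% lower and 0.570% higher. None of the 81 nuclear-encoded subunits tested passed, and their median log2 fold change of Yoda1 over DMSO was 0.02. The 13 mitochondrially encoded subunits had a median of -0.36, with 6 positive and 7 negative values, and the median over all tested genes was 0.01. In bulk RNA, fewer cells that express a gene and less RNA per cell cannot be told apart.

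**Figure D1:**
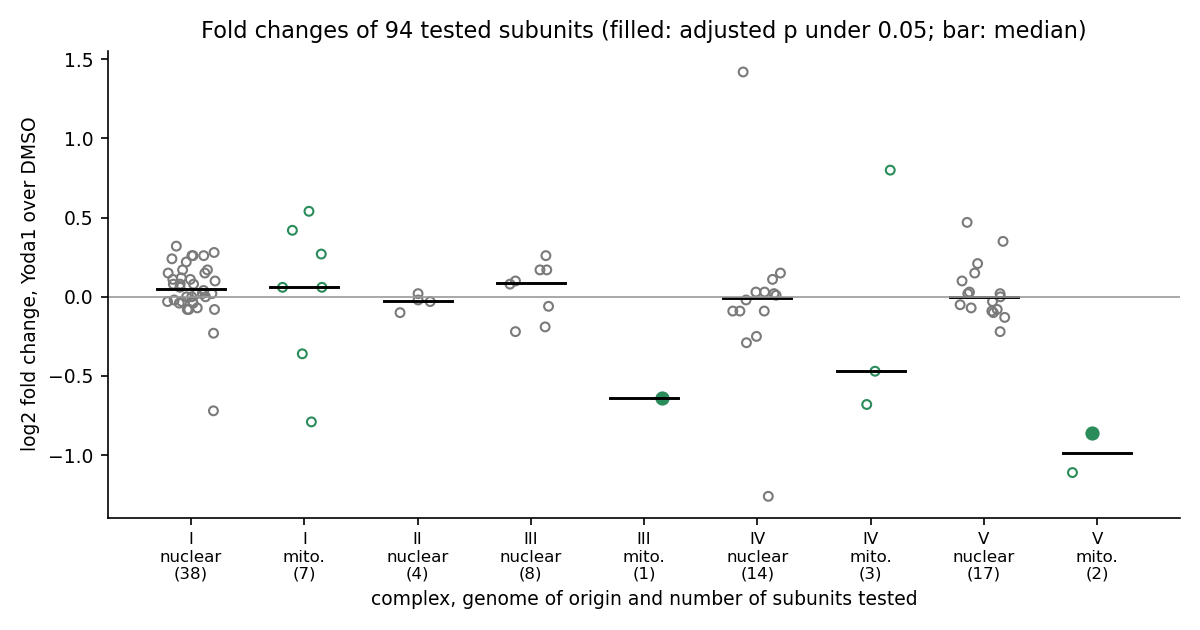
Log2 fold change of Yoda1 over DMSO (vertical axis) for each of the 94 tested subunits, by complex and genome of origin (horizontal axis). Each circle is a subunit, filled where the adjusted p was under 0.05, and bars are medians. The 2 filled circles are mt-Cytb at -0.64 and mt-Atp6 at -0.86, and the nuclear medians lie between -0.02 and 0.09.

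The 2 mitochondrially encoded subunits of complex V were lower in every Yoda1 library than in any DMSO library. mt-Atp6 (chrM:7927-8607) encodes the membrane subunit that forms the proton path of the ATP synthase with the c-ring. It had 100, 116 and 104 CPM in Yoda1 4, 5 and 6 and 189, 196 and 195 CPM in DMSO 1, 2 and 3. The libraries of each group lay close together and the groups did not overlap. mt-Atp6 fell, with a log2 fold change of -0.86 (SE 0.11; Benjamini-Hochberg adjusted p in edgeR's quasi-likelihood test = 0.00887; lower in 3 of 3 Yoda1 libraries). With the counts of Gm10925 added it was -0.82 (edgeR quasi-likelihood test, adjusted p = 0.0105). mt-Atp8 (chrM:7766-7969) encodes a small membrane subunit. It had 8.26, 7.96 and 8.59 CPM in Yoda1 4, 5 and 6 against 17.2, 18.4 and 18 CPM in DMSO 1, 2 and 3. These groups too lay apart, with a log2 fold change of -1.11 (SE 0.23), and mt-Atp8 did not pass (edgeR quasi-likelihood test, adjusted p = 0.0599).

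mt-Cytb (chrM:14145-15288) encodes cytochrome b, the only subunit of complex III made in the mitochondrion. It had 381, 448 and 339 CPM in Yoda1 4, 5 and 6 and 640, 602 and 581 CPM in DMSO 1, 2 and 3. The highest Yoda1 library lay below the lowest DMSO library. mt-Cytb fell, with a log2 fold change of -0.64 (SE 0.11; Benjamini-Hochberg adjusted p in edgeR's quasi-likelihood test = 0.0356; lower in 3 of 3 Yoda1 libraries). It has no near-identical copy in the table.

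Both calls were lost in some fits without a single library, although the sizes changed little. mt-Atp6 passed without any 1 of the Yoda1 libraries (edgeR, adjusted p between 0.017 and 0.0491), and mt-Cytb passed without Yoda1 6 (0.0393). Without DMSO 1, 2 or 3 the adjusted p of mt-Atp6 in the same edgeR test was 0.061, 0.0852 and 0.09, with log2 fold changes of -0.87, -0.85 and -0.86, and that of mt-Cytb was 0.143, 0.169 and 0.153, with -0.60, -0.65 and -0.68. Without Yoda1 4 or Yoda1 5 mt-Cytb also did not pass (edgeR, adjusted p = 0.0831 and 0.0584). Over all tested genes the same test called 0.244%, 0.158% and 0.0645% without DMSO 1, 2 or 3. It called 1.05% and 0.243% without Yoda1 4 or Yoda1 5, against 1.49% with all 6 libraries. With a label suffix as a term (0 for DMSO 1 and 2, another number for the rest) or with libraries of a shared label number summed, the sizes were -0.87 and -0.86 for mt-Atp6 and -0.58 and -0.72 for mt-Cytb. Neither gene passed in those fits (edgeR, adjusted p between 0.168 and 0.382). Of all tested genes, the fit with the suffix called 0.0225% and the fit on summed libraries 0.00699%. Since no Yoda1 library carries the suffix 0, no value within that suffix exists. With the suffix as a term the sizes rest on DMSO 3 alone against the Yoda1 libraries.

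The 3 mitochondrially encoded subunits of complex IV, cytochrome c oxidase, went different ways. mt-Co2, which holds a copper centre that takes electrons from cytochrome c, had 93.6, 104 and 72.8 CPM in Yoda1 4, 5 and 6 and 158, 145 and 131 CPM in DMSO 1, 2 and 3. mt-Co3, a membrane subunit, had 216, 253 and 275 CPM in Yoda1 4, 5 and 6 and 359, 360 and 312 CPM in DMSO 1, 2 and 3. Both lay lower in every Yoda1 library, and neither passed. Their log2 fold changes were -0.68 (SE 0.16; edgeR quasi-likelihood test, adjusted p = 0.0769) for mt-Co2 and -0.47 (SE 0.12; adjusted p = 0.0994) for mt-Co3. With the counts of their nuclear copies added these were -0.59 and -0.38 (edgeR quasi-likelihood test, adjusted p = 0.0636 and 0.118). mt-Co1, the catalytic subunit, had 750, 870 and 319 CPM in Yoda1 4, 5 and 6 against 393, 368 and 350 CPM in DMSO 1, 2 and 3. Yoda1 4 and 5 lay above all DMSO libraries and Yoda1 6 below them, and the log2 fold change was 0.80 (SE 0.30; edgeR quasi-likelihood test, adjusted p = 0.266). Without Yoda1 6 it was 1.13 and passed (edgeR, adjusted p = 0.00427), so for mt-Co1 a single library decides the call. With the counts of Gm29216 added and all libraries kept, its log2 fold change was 0.86 (edgeR quasi-likelihood test, adjusted p = 0.232). The 2 libraries in which mt-Co1 was high share a label number, and whether they are independent samples cannot be told from the labels.

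A ratio between 2 genes of the same library does not depend on how libraries are scaled. A difference between libraries that goes with transcript length does not cancel in it. The lengths are 1545 bases for mt-Co1, 684 for mt-Co2, 1144 for mt-Cytb and 1824 for mt-Nd5. The part of length in the ratios was not tested. The ratio of mt-Co1 to mt-Co2 counts was 8.01, 8.35 and 4.39 in Yoda1 4, 5 and 6 and 2.48, 2.54 and 2.66 in DMSO 1, 2 and 3. It was higher in every Yoda1 library, also in Yoda1 6. With the nuclear copies added to both genes it was 5.32, 5.35 and 2.60 in Yoda1 4, 5 and 6 and 1.65, 1.72 and 1.65 in DMSO 1, 2 and 3, again without overlap. The ratio of mt-Cytb to mt-Nd5 counts was 2.65, 2.51 and 3.21 in Yoda1 4, 5 and 6 against 5.55, 5.71 and 5.86 in DMSO 1, 2 and 3. These pairs were chosen after their values were seen and carry no test.

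The 7 mitochondrially encoded subunits of complex I, which form the proton-pumping membrane arm, gave no call. mt-Nd1 lay apart, with 167, 209 and 176 CPM in Yoda1 4, 5 and 6 and 259, 229 and 223 CPM in DMSO 1, 2 and 3 (log2 fold change -0.36, SE 0.12; edgeR quasi-likelihood test, adjusted p = 0.204). mt-Nd5 had 144, 179 and 106 CPM in Yoda1 4, 5 and 6 and 115, 105 and 99.3 CPM in DMSO 1, 2 and 3, with overlap through Yoda1 6 and a log2 fold change of 0.42 (SE 0.19; adjusted p = 0.346 in the same test). mt-Nd6 is the only one of the 13 on the other strand (chrM:13552-14070, - strand). It had 15.9, 19.4 and 13 CPM in Yoda1 4, 5 and 6 against 13.6, 15.9 and 10.6 CPM in DMSO 1, 2 and 3, and these overlapped. mt-Nd2 and mt-Nd4 each had a log2 fold change of 0.06, with 37.3 ± 10.7 CPM in Yoda1 and 35.7 ± 5.09 CPM in DMSO libraries for mt-Nd2 and 128 ± 29.7 CPM in Yoda1 and 122 ± 9.13 CPM in DMSO libraries for mt-Nd4 (SD, n = 3 each). mt-Nd3 and mt-Nd4l were the lowest of the 13, at 1.05 ± 0.335 CPM in Yoda1 and 1.82 ± 0.651 CPM in DMSO libraries for mt-Nd3 and 2.59 ± 1.45 CPM in Yoda1 and 1.77 ± 0.985 CPM in DMSO libraries for mt-Nd4l (SD, n = 3 each). Their copies Gm28438 and Gm10222 took 45.3% to 80.9% and 69.0% to 93.6% of the pairs' counts, and with the copy added the value of mt-Nd4l changed sign, at -0.16 instead of 0.54. No direction is read for it. With its copy added mt-Nd3 had 1.74, 4.44 and 2.57 CPM in Yoda1 4, 5 and 6 and 5.41, 5.62 and 4.74 CPM in DMSO 1, 2 and 3, without overlap, and did not pass (edgeR, adjusted p = 0.454).

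**Figure D2:**
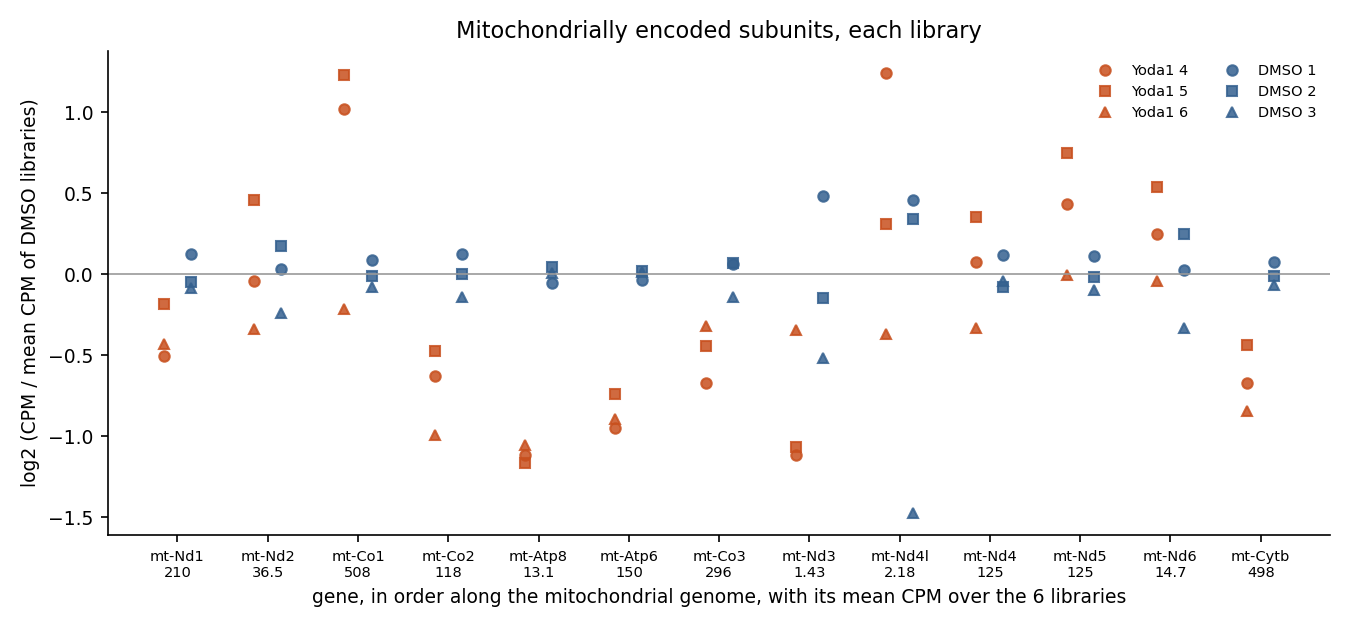
Level of the 13 mitochondrially encoded subunits in each library, as log2 of the CPM over the mean CPM of the 3 DMSO libraries (vertical axis), in order along the mitochondrial genome (horizontal axis, with the mean CPM of each gene). Yoda1 libraries are left of DMSO libraries for each gene. mt-Co2, mt-Atp8, mt-Atp6, mt-Co3, mt-Cytb and mt-Nd1 lie below DMSO in all 3 Yoda1 libraries, whereas Yoda1 4 and 5 lie above it for mt-Co1 and mt-Nd5.

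In all, 6 of the 13 mitochondrially encoded subunits were lower in every Yoda1 library than in any DMSO library and 0 were higher. With the counts of the nuclear copies added it was 7 of the 13, since mt-Nd3 then lay apart too, and 0 were higher. Among all tested genes, 12.0% lay apart in the lower and 10.6% in the higher direction, 22.6% together. At an unadjusted p under 0.05 in the edgeR test, 6 of the 13 were lower and 1, mt-Co1, was higher, where all tested genes gave 7.11% lower and 7.39% higher. These genes share precursors and, for mt-Atp8 and mt-Atp6, sequence, so they are not independent of each other.

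The mitochondrial ribosomal RNAs, which come from the same genome and are no members, were not lower. mt-Rnr2 had 713, 884 and 789 CPM in Yoda1 4, 5 and 6 and 632, 620 and 580 CPM in DMSO 1, 2 and 3, higher in every Yoda1 library (log2 fold change 0.38, SE 0.10; edgeR quasi-likelihood test, adjusted p = 0.102). mt-Rnr1 had 118, 153 and 157 CPM in Yoda1 4, 5 and 6 and 120, 131 and 114 CPM in DMSO 1, 2 and 3, which overlapped. These 2 genes were added after their values were seen. As a share of all counts, the 13 mitochondrially encoded subunits took 0.206%, 0.242% and 0.151% in Yoda1 4, 5 and 6 and 0.233%, 0.220% and 0.206% in DMSO 1, 2 and 3, and the nuclear-encoded subunits took 1.75%, 1.89% and 2.29% in Yoda1 4, 5 and 6 and 2.04%, 1.97% and 1.92% in DMSO 1, 2 and 3. The 7 nuclear copies are left out of these shares and of the sums below. They took 0.0816%, 0.0997% and 0.0658% in Yoda1 4, 5 and 6 and 0.0907%, 0.09% and 0.0833% in DMSO 1, 2 and 3.

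Summed over members, the mitochondrially encoded part of complex V had 109, 124 and 112 CPM in Yoda1 4, 5 and 6 and 206, 215 and 213 CPM in DMSO 1, 2 and 3, a log2 ratio of -0.88 without overlap. Its nuclear-encoded part had 6059, 6362 and 7569 CPM in Yoda1 4, 5 and 6 against 6886, 6708 and 6693 CPM in DMSO 1, 2 and 3, which overlapped. Ratios of 1 mitochondrial to 1 nuclear gene were taken for 3 complexes, on pairs chosen after their values were seen. The ratio of mt-Atp6 to Atp5b, the nuclear-encoded catalytic subunit, was 0.0486, 0.0611 and 0.0477 in Yoda1 4, 5 and 6 and 0.0870, 0.0957 and 0.0944 in DMSO 1, 2 and 3. For complex III the ratio of mt-Cytb to Uqcrc1, a nuclear-encoded core subunit, was 0.537, 0.643 and 0.427 in Yoda1 4, 5 and 6 and 0.876, 0.956 and 0.836 in DMSO 1, 2 and 3. In these pairs the mitochondrial member was lower against its nuclear partner in every Yoda1 library. For complex IV the ratio of mt-Co1 to Cox4i1 was 1.37, 1.42 and 0.404 in Yoda1 4, 5 and 6 and 0.557, 0.601 and 0.560 in DMSO 1, 2 and 3. It overlapped, with Yoda1 4 and 5 above and Yoda1 6 below DMSO.

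For complexes I and IV the mitochondrial sums overlapped. Complex I had 496, 616 and 423 CPM in Yoda1 4, 5 and 6 and 562, 510 and 483 CPM in DMSO 1, 2 and 3. Complex IV, led by mt-Co1, had 1060, 1227 and 667 CPM in Yoda1 4, 5 and 6 and 911, 873 and 793 CPM in DMSO 1, 2 and 3. Without mt-Co1 the log2 ratio of the complex IV sum was -0.53, where it was 0.20 with it, so that sum follows a single gene. Over all members, 11.8, 12.8 and 6.59 mitochondrially encoded counts stood against every 100 nuclear-encoded ones in Yoda1 4, 5 and 6, and 11.4, 11.2 and 10.7 in DMSO 1, 2 and 3. Only Yoda1 6 departed from the other 5.

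**Figure D3:**
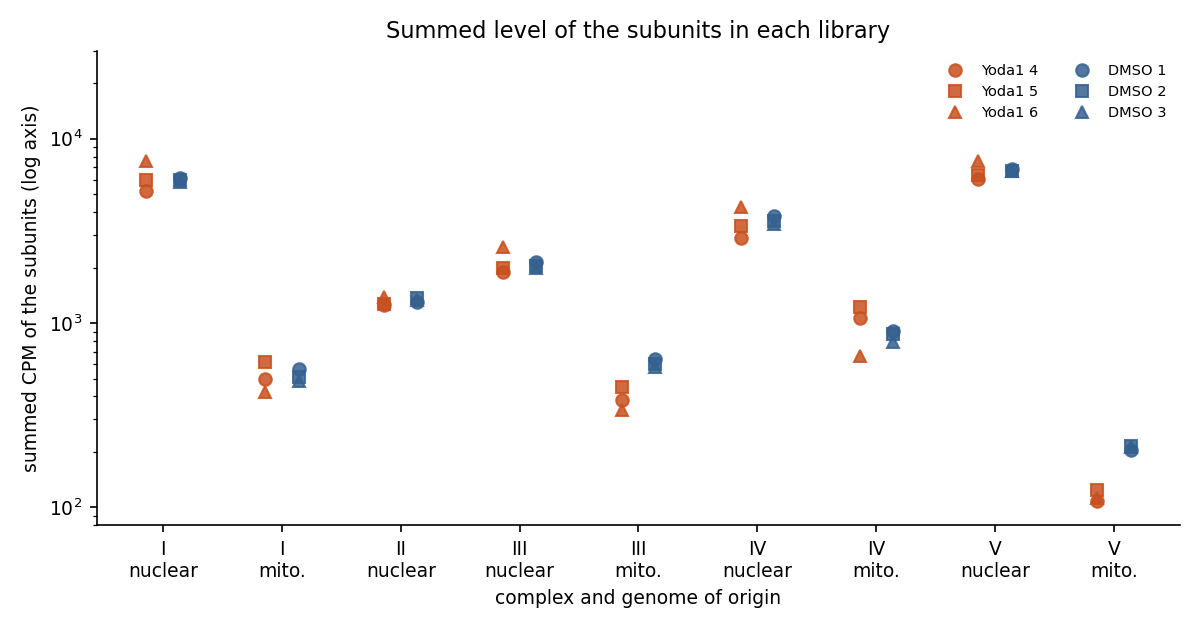
Summed CPM of the subunits of each complex (vertical log axis), by complex and genome of origin (horizontal axis), for each of the 6 libraries, with Yoda1 libraries left of DMSO libraries. The mitochondrial sums of complexes III and V lie lower in all Yoda1 libraries, and in the nuclear sums Yoda1 6 is the highest library and Yoda1 4 the lowest.

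Nuclear-encoded complex I, the NADH dehydrogenase, had 38 tested subunits with a median log2 fold change of 0.05, 25 of them positive and 13 negative. Ndufa10, an accessory subunit of the membrane arm, was the only one whose groups lay apart. It had 160, 179 and 164 CPM in Yoda1 4, 5 and 6 and 190, 200 and 199 CPM in DMSO 1, 2 and 3 (log2 fold change -0.23, SE 0.10; edgeR quasi-likelihood test, adjusted p = 0.344). Ndufb9, an accessory subunit, was nearly the same in the DMSO libraries and spread among the Yoda1 libraries, at 181, 231 and 295 CPM in Yoda1 4, 5 and 6 against 194, 194 and 195 CPM in DMSO 1, 2 and 3. Ndufb3 had 86.3 ± 12.3 CPM in Yoda1 and 73.9 ± 2.88 CPM in DMSO libraries (SD, n = 3 each), with overlap. Ndufa4 is counted here by its name, although its protein is known to sit with cytochrome c oxidase, and had 187 ± 50.7 CPM in Yoda1 and 176 ± 3.03 CPM in DMSO libraries (SD, n = 3 each). The names Ndufa11b, Ndufb4c and Ndufs6b are annotated as processed pseudogenes and stayed at or under 2.43 CPM in every library. Ndufs6b, with 49 counts in all, was not tested.

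Complex II, succinate dehydrogenase, links the citric acid cycle to the chain and has no mitochondrially encoded subunit. Its log2 fold changes ran from -0.10 to 0.02. Sdha, the flavoprotein that oxidises succinate, had 395 ± 27.0 CPM in Yoda1 and 390 ± 16.4 CPM in DMSO libraries (SD, n = 3 each). Sdhb, the iron-sulfur subunit, had 505 ± 48.7 CPM in Yoda1 and 511 ± 14.7 CPM in DMSO libraries (SD, n = 3 each). The membrane anchors Sdhc and Sdhd had 94.3 ± 5.45 and 311 ± 56.0 CPM in Yoda1 and 96.0 ± 3.45 and 333 ± 14.6 CPM in DMSO libraries (SD, n = 3 each). All 4 overlapped between the groups.

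The 8 nuclear-encoded subunits of complex III, the cytochrome bc1 complex, had a median of 0.09. Uqcrc2, a core subunit, had 217, 201 and 235 CPM in Yoda1 4, 5 and 6 and 170, 201 and 175 CPM in DMSO 1, 2 and 3. The lowest Yoda1 and the highest DMSO library nearly touched (log2 fold change 0.26, SE 0.11; edgeR quasi-likelihood test, adjusted p = 0.342). Uqcrfs1, the Rieske iron-sulfur protein, had 196 ± 29.8 CPM in Yoda1 and 228 ± 15.9 CPM in DMSO libraries, and Uqcrb 102 ± 21.1 CPM in Yoda1 and 117 ± 2.07 CPM in DMSO libraries (SD, n = 3 each), both with overlap. mt-Cytb thus fell while the nuclear subunits of the same complex gave no call.

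Cytochrome c oxidase has nuclear subunits with isoforms for different tissues, and the levels below tell which isoform dominated. Per kilobase of transcript, Cox6a1, the broadly expressed isoform, had 1024 ± 146 CPM per kb in Yoda1 and 1092 ± 52.5 CPM per kb in DMSO libraries (SD, n = 3 each). Its muscle isoform Cox6a2 was not tested: it had counts only in Yoda1 6 (0.358 CPM) and DMSO 1 (0.938 CPM). Cox6b1 had 734 ± 114 CPM per kb in Yoda1 and 719 ± 26.8 CPM per kb in DMSO libraries, and Cox6b2, the testis isoform, 2.11 ± 1.22 CPM per kb in Yoda1 and 5.07 ± 2.25 CPM per kb in DMSO libraries (SD, n = 3 each). Cox7a2 had 458 ± 139 CPM per kb in Yoda1 and 486 ± 41.3 CPM per kb in DMSO libraries, and Cox7a1, the heart and muscle isoform, 9.64 ± 1.89 CPM per kb in Yoda1 and 3.58 ± 1.67 CPM per kb in DMSO libraries (SD, n = 3 each). Cox7a1 was the 1 nuclear subunit of this complex whose groups lay apart, at 2.97, 3.98 and 4.42 CPM in Yoda1 4, 5 and 6 and 0.717, 2.02 and 1.49 CPM in DMSO 1, 2 and 3. Its log2 fold change was 1.42 (SE 0.56; edgeR quasi-likelihood test, adjusted p = 0.296), on 287 counts in all.

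Cox4i1 binds early in assembly of the enzyme, and its isoform for low oxygen has no column in the deposited table. Cox4i1 had 549, 614 and 791 CPM in Yoda1 4, 5 and 6 and 706, 613 and 625 CPM in DMSO 1, 2 and 3. Cox8a had 298, 372 and 405 CPM in Yoda1 4, 5 and 6 and 430, 446 and 402 CPM in DMSO 1, 2 and 3, with a log2 fold change of -0.25 (SE 0.12; edgeR quasi-likelihood test, adjusted p = 0.394). Only Yoda1 6 reached the lowest DMSO library. Cox7a2l, which is known to join complexes III and IV into supercomplexes, had 75.4, 64.7 and 101 CPM in Yoda1 4, 5 and 6 and 78.1, 68.8 and 76.8 CPM in DMSO 1, 2 and 3. Cox6c2 is annotated as a processed pseudogene and stayed at or under 1.10 CPM.

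The 17 nuclear-encoded subunits of complex V had a median of 0.00. Atp5b, the catalytic beta subunit, had the most counts of all members, 2069, 1895 and 2176 CPM in Yoda1 4, 5 and 6 and 2172, 2052 and 2065 CPM in DMSO 1, 2 and 3. Atp5l, subunit g of the membrane part, had 144, 166 and 223 CPM in Yoda1 4, 5 and 6 against 137, 126 and 121 CPM in DMSO 1, 2 and 3 (log2 fold change 0.47, SE 0.17; edgeR quasi-likelihood test, adjusted p = 0.230). Atp5d, the delta subunit of the central stalk, had 337, 409 and 413 CPM in Yoda1 4, 5 and 6 and 448, 434 and 468 CPM in DMSO 1, 2 and 3 (log2 fold change -0.22, SE 0.10; adjusted p = 0.375 in the same test). Both lay apart, in opposite directions. Atp5e, the epsilon subunit of the same stalk, had 140, 160 and 260 CPM in Yoda1 4, 5 and 6 and 178, 131 and 132 CPM in DMSO 1, 2 and 3, with overlap. Atpif1, the inhibitor of the enzyme, falls outside the rule under this name and had 198, 222 and 277 CPM in Yoda1 4, 5 and 6 and 231, 205 and 206 CPM in DMSO 1, 2 and 3.

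The c-ring of the ATP synthase is encoded by Atp5g1, Atp5g2 and Atp5g3, whose mature proteins are the same. They had 386 ± 56.0, 284 ± 24.5 and 553 ± 64.2 CPM per kb in Yoda1 and 412 ± 36.4, 298 ± 18.1 and 583 ± 14.6 CPM per kb in DMSO libraries (SD, n = 3 each). Atp5g3 had the highest level in both groups and Atp5g2 the lowest, and each overlapped between the groups. Among the nuclear members with a length, Atp5b at 1068 ± 74.1 CPM per kb in Yoda1 and 1094 ± 34.4 in DMSO libraries stood beside Cox6a1 at the top (SD, n = 3 each), a difference within their spread. Ndufb7 led complex I at 611 ± 153 CPM per kb in Yoda1 and 567 ± 40.5 in DMSO libraries (SD, n = 3 each). Sdhb led complex II at 442 ± 42.6 CPM per kb in Yoda1 and 448 ± 12.8 in DMSO libraries, and Uqcrq led complex III at 644 ± 183 CPM per kb in Yoda1 and 670 ± 59.8 in DMSO libraries (SD, n = 3 each).

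**Figure D4:**
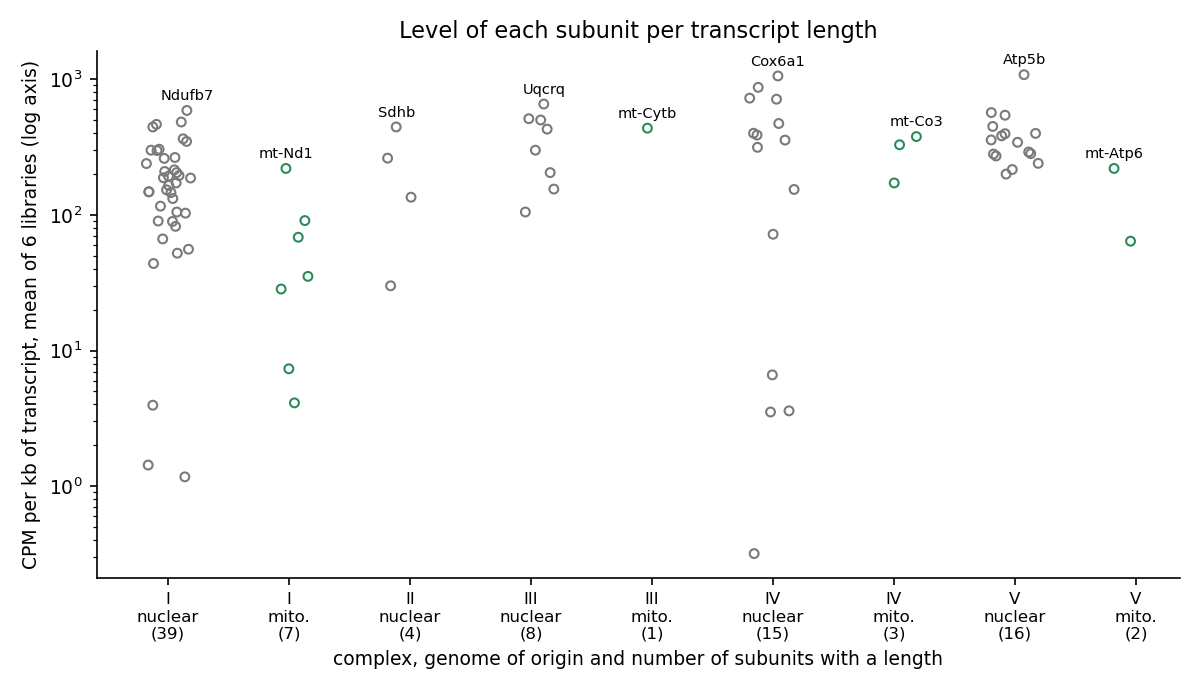
Mean level of each subunit over the 6 libraries in CPM per kb of transcript (vertical log axis), by complex and genome of origin (horizontal axis, with the number of subunits that have an annotated length). The highest subunit of each column is named, and levels are without the counts of nuclear copies. The 7 nuclear-encoded subunits near the bottom are the tissue isoforms Cox6a2, Cox6b2 and Cox7a1 and the pseudogenes Cox6c2, Ndufa11b, Ndufb4c and Ndufs6b.

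For the 0 calls among the 81 nuclear-encoded subunits, 3 were higher (Atp5l, Cox7a1 and Uqcrc2) and 1 lower (Ndufa10) at an unadjusted p under 0.05 in edgeR's test. DESeq2 and limma voom also called 0 of them, while they called 6.56% and 2.25% of all genes they tested. Over all tested genes 7.39% were higher and 7.11% lower at that unadjusted p. Groups lay apart for 5 of the 81, the 4 just named and Atp5d, where 22.6% of all tested genes lay apart in either direction. Among the 76 with a mean of at least 50 CPM, fold changes ran from -0.25 for Cox8a to 0.47 for Atp5l on the log2 scale.

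The nuclear subunits did move together, but between Yoda1 libraries. Yoda1 6 was the highest of the 3 Yoda1 libraries for 76 of 81 nuclear subunits (93.8%), where it was the highest for 37.1% of all tested genes, and Yoda1 4 was the lowest for 68 (84.0%), against 34.5% of all tested genes. The median ratio of Yoda1 6 to Yoda1 4 was 1.46 over nuclear subunits and 0.995 over all tested genes. Between the DMSO libraries the median ratio of the highest to the lowest was 1.13. Ndufb2, an accessory subunit of complex I, had 55.7, 86.3 and 122 CPM in Yoda1 4, 5 and 6 and 90.9, 81.3 and 73.2 CPM in DMSO 1, 2 and 3. Its Yoda1 libraries lay on both sides of DMSO, and Ndufb2, like other genes in this paragraph, was chosen after its values were seen. The median of the nuclear subunits, 0.02 with all libraries, was 0.12 without Yoda1 4 and -0.13 without Yoda1 6.

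This spread went with transcript length. Among nuclear subunits of at least 50 CPM, the 49 with a transcript under 1000 bases had a median ratio of Yoda1 6 to Yoda1 4 of 1.59, and the 26 longer ones 1.25. Over all tested genes of at least 50 CPM the ratios were 1.42 for 429 short and 0.961 for 3808 longer transcripts. The rank correlation (Spearman) of length with this log2 ratio was -0.54 across 75 nuclear subunits and -0.57 across 4237 genes, which is a description across genes that share 2 libraries. Sdhc and Sdha, the longest 2, had 100, 93.3 and 89.5 CPM and 406, 415 and 364 CPM in Yoda1 4, 5 and 6, with Yoda1 6 the lowest. The 1000-base split was chosen after the values were seen. The sources used here do not give RNA integrity or fragment size, and what else differed between Yoda1 4 and Yoda1 6 was not tested.

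**Figure D5:**
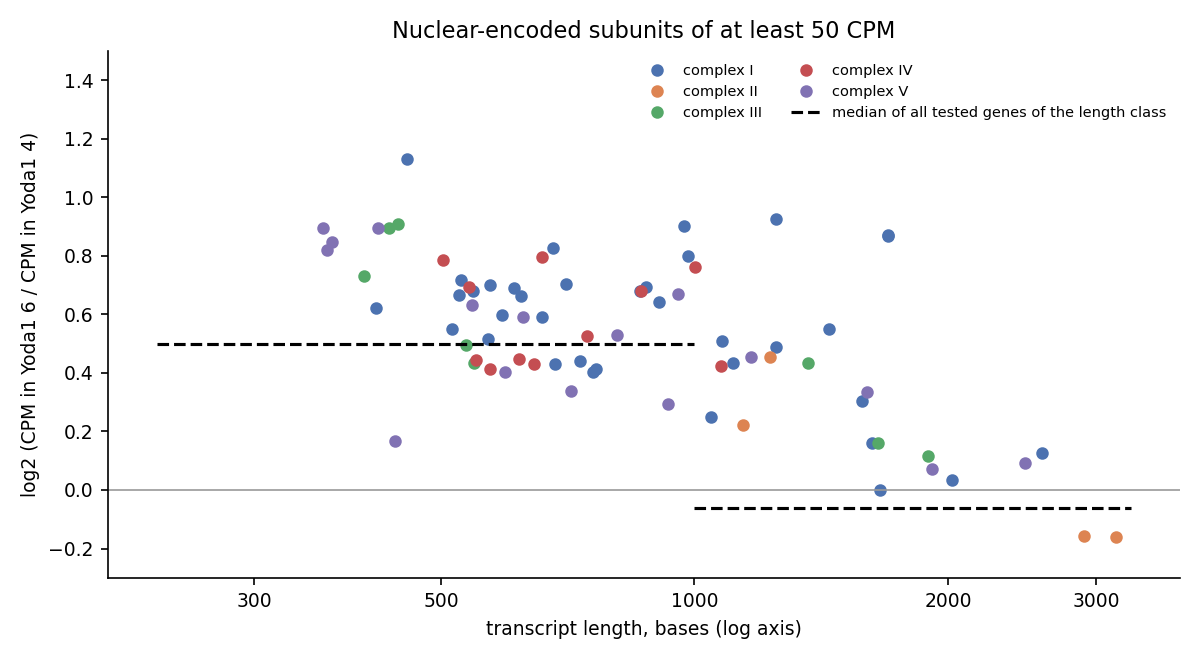
Log2 ratio of the CPM in Yoda1 6 to the CPM in Yoda1 4 (vertical axis) against transcript length in bases (horizontal log axis) for the 75 nuclear-encoded subunits of at least 50 CPM with a length, coloured by complex. Dashed lines are the medians of all tested genes of at least 50 CPM with a transcript under 1000 bases (0.50) and of 1000 bases or more (-0.06). The ratio is highest for short subunits, and the 2 longest lie below 0.

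As a sequence feature that the nuclear subunits may share, their promoters were read for motifs known from this gene family. A RefSeq promoter (GRCm38.p6, 250 bases before to 50 after the start) was found for 66 of the 83. The core letters GCGCATG of the NRF1 motif were found in 13 of 66 (19.7%), against 7.63% of the 10880 table genes with a promoter and 4.41% of all 27025 genes with a promoter. The ETS core CCGGAAG was found in 17 (25.8%), against 19.9% of the table genes and 9.93% of all genes with a promoter, and the YY1 core ATGGCGG in 10 (15.2%), against 9.11% and 4.69% of the same sets. Both strands were searched, and matches can overlap where cores share end letters, as GCGCATG and ATGGCGG do with ATG. The NRF1 and ETS cores stood together in 6 promoters, and 2 of these are shown, Atp5l because its groups lay apart and Cox6a1 because it leads complex IV per kb. Capitals mark the matches on either strand. The Atp5l window is chr9:44920693-44920992 and the Cox6a1 window chr5:115348909-115349208, both on the - strand.
Atp5l: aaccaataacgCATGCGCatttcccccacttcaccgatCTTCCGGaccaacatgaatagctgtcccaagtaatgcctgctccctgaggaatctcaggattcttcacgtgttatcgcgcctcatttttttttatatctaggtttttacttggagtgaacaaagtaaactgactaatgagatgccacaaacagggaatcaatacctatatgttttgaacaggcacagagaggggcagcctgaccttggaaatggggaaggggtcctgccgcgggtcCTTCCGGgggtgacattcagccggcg
Cox6a1: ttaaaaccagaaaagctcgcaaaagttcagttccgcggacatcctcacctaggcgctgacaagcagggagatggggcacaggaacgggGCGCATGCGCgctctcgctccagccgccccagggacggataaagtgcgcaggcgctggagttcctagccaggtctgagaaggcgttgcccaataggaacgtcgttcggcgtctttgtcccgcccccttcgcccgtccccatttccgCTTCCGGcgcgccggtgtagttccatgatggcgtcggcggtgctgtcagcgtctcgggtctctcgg
Of the subunits with both cores, Cox6a1 had 501, 585 and 667 CPM in Yoda1 4, 5 and 6 and 658, 609 and 604 CPM in DMSO 1, 2 and 3, with overlap, whereas Atp5l lay apart as given above. A match describes the letters in this window and says nothing of a factor bound there.

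Other genes of the pathway came from 10 lists, with 140 tested. Of these 1 rose, 1 fell and 138 did not pass, with a median log2 fold change of 0.12 against 0.01 for all tested genes. The test called 1.49% of all tested genes, so 2 of 140 is near the background. Mterf4, of the mitochondrial transcription termination factor family and known for its part in mitochondrial ribosome assembly, had 27.9, 30.3 and 26.7 CPM in Yoda1 4, 5 and 6 and 11.8, 10.7 and 13.4 CPM in DMSO 1, 2 and 3. It rose, with a log2 fold change of 1.25 (SE 0.21; Benjamini-Hochberg adjusted p in edgeR's quasi-likelihood test = 0.0307; higher in 3 of 3 Yoda1 libraries), and the 16 other tested genes of mitochondrial DNA maintenance and transcription did not pass (median of the list 0.18). Ucp2, a carrier of the inner membrane from the uncoupling protein family, had 1091, 1120 and 905 CPM in Yoda1 4, 5 and 6 and 1554, 1442 and 1422 CPM in DMSO 1, 2 and 3. It fell, with -0.50 (SE 0.09; adjusted p = 0.0425 in the same test; lower in 3 of 3 Yoda1 libraries), and was the only call among 14 tested genes of nucleotide, phosphate and calcium transport, whose median was 0.09. Under the 17 alternatives Mterf4 passed in 10 and Ucp2 in 9, with no change of sign. Without a library in turn each passed in 1 of 6 edgeR fits (adjusted p between 0.0422 and 0.161 for Mterf4 and between 0.023 and 0.185 for Ucp2), and neither passed with libraries of a shared label number summed (0.223 and 0.244) or with the label suffix as a term (0.387 and 0.426).

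The lists for assembly of the complexes gave no call. The 17 complex I assembly genes had a median of 0.23, the 4 of complex II 0.45, the 6 of complex III 0.21, the 21 of complex IV 0.06 and the 5 of complex V -0.09. Sdhaf4, a chaperone for Sdha, had 27.8, 28.8 and 34.6 CPM in Yoda1 4, 5 and 6 and 19.3, 21.0 and 23.5 CPM in DMSO 1, 2 and 3 (log2 fold change 0.52, SE 0.20; edgeR quasi-likelihood test, adjusted p = 0.281). Cox18, which inserts the tail of mt-Co2 into the membrane, had 30.7, 36.2 and 35.3 CPM in Yoda1 4, 5 and 6 and 47.5, 55.8 and 47.5 CPM in DMSO 1, 2 and 3 (log2 fold change -0.56, SE 0.17; adjusted p = 0.157 in the same test). Both lay apart and did not pass.

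The 20 tested genes of mitochondrial RNA handling had a median of 0.10 and no call. Ptcd2, known in mice for maturation of the cytochrome b messenger, had 64.3, 61.3 and 58.2 CPM in Yoda1 4, 5 and 6 and 31.5, 30.9 and 45.7 CPM in DMSO 1, 2 and 3 (log2 fold change 0.77, SE 0.19; edgeR quasi-likelihood test, adjusted p = 0.1). Elac2, which trims the ends of mitochondrial transfer RNAs, had 86.6, 83.7 and 87.2 CPM in Yoda1 4, 5 and 6 and 68.2, 56.9 and 64.9 CPM in DMSO 1, 2 and 3 (log2 fold change 0.44, SE 0.13; adjusted p = 0.165 in the same test). The 23 genes for electron carriers and coenzyme Q synthesis had a median of 0.02 and no call, and the 13 tested regulators of respiratory genes had a median of 0.18, also with no call. Among the regulators Nrf1, whose motif was searched above, had 83.1, 87.4 and 100 CPM in Yoda1 4, 5 and 6 and 98.4, 102 and 116 CPM in DMSO 1, 2 and 3, which overlapped.

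The summed markers of several other cell types differed between the groups, and their part in the results on the subunits was not tested. The 5 NK cell and ILC1 markers found summed to 43.9 to 63.3 CPM in Yoda1 and 154 to 210 CPM in DMSO libraries. Gzma and Gzmb made up most of that sum and fell (edgeR quasi-likelihood test, adjusted p = 0.00887 and 0.00452). Prf1 had 1.81, 3.29 and 1.91 CPM in Yoda1 4, 5 and 6 and 0.386, 3.19 and 1.63 CPM in DMSO 1, 2 and 3. Prf1 and Eomes, the latter at 0.835 CPM or less, overlapped between the groups. Tbx21 also overlapped, at 0 in all Yoda1 libraries and 0.536 CPM or less in DMSO. The 6 macrophage and dendritic cell markers summed to 66.8 to 117 CPM in Yoda1 and 11.6 to 15.5 CPM in DMSO libraries, mostly Chil3, with Adgre1 at 0 in all Yoda1 libraries. Lyz2 had 6.32, 9.92 and 11.2 CPM in Yoda1 4, 5 and 6 against 4.91, 1.29 and 1.77 CPM in DMSO 1, 2 and 3, higher in every Yoda1 library. Cd68 had 12.3, 13.8 and 8.41 CPM in Yoda1 4, 5 and 6 and 6.40, 10.2 and 7.43 CPM in DMSO 1, 2 and 3, which overlapped. The 8 epithelial markers summed to 55.9 to 77.7 CPM in Yoda1 and 91.8 to 408 CPM in DMSO libraries, with Scgb1a1 at 301 and 295 CPM in DMSO 2 and 3. Epcam made up most of the Yoda1 sums and overlapped between the groups. It had 57.8, 48.8 and 71.6 CPM in Yoda1 4, 5 and 6 and 67.4, 64.5 and 65.9 CPM in DMSO 1, 2 and 3. Krt18 overlapped too, whereas Sftpa1 and Ager lay lower in every Yoda1 library. Of the 4 epithelial markers tested, 0 were called. DMSO 1 had Scgb1a1 at 0 and Sftpc at 15.2 CPM, against 0.568 CPM and 0 of Sftpc in DMSO 2 and 3. The 5 T cell markers found summed to 29.0 to 39.3 CPM in Yoda1 and 45.1 to 51.0 CPM in DMSO libraries, the 2 erythroid ones to 9.94 to 19.5 CPM in Yoda1 and 6.37 to 8.66 CPM in DMSO libraries, and the 15 ILC2 markers to 11686 to 12846 CPM in Yoda1 and 10484 to 11276 CPM in DMSO libraries. Il5 made up most of the ILC2 sum, with 6960, 6932 and 8429 CPM in Yoda1 4, 5 and 6 and 5308, 5924 and 5932 CPM in DMSO 1, 2 and 3. Of the 15 ILC2 markers 1 was called higher, Arg1, and 2 lower, Il2ra and Icos. Their adjusted p in edgeR's quasi-likelihood test was 0.00868, 0.00707 and 0.00423. The sums for B cells, granulocytes and mast cells, and endothelial and stromal cells overlapped.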

How the data were processed

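RNA-seq libraries were made from total RNA of sorted ILC2s, with 10 ng of RNA per cDNA reaction per the labels' protocols, and 1 table was deposited. Its values are expected counts, estimated read counts that need not be whole, made by the authors with Partek per the deposited table's name. The genome build was mm10 per the submitters' processing notes, and the sources used here do not name the aligner, counting method, strand setting or annotation. Counts were rounded to whole numbers.

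The fit was edgeR 4.0.16 in R 4.3.3 on all 6 libraries and the whole table: genes kept by filterByExpr with a count of 10 and a total of 15, TMM scaling, a quasi-likelihood F test (glmQLFTest) of group alone, and p-values of the 13325 genes adjusted by Benjamini-Hochberg. A standard error is the log2 fold change divided by the square root of F. CPM are scaled by TMM. Libraries of a group differed by more than sampling noise (chi-square over its degrees of freedom of 19.27 or more for every pair). The fit was repeated with DESeq2 1.42.0, limma 3.58.1 voom, RLE, upper-quartile or total-count scaling, other filters, label terms, summed libraries, each library left out, and nuclear copies added. The script was tested on simulated data.

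GENCODE M21 (GRCm38, which is mm10 and not the BALB/c genome) gave positions and lengths; 93 members matched by name, 2 through another symbol, and Atp5o has no single position. The length is that of the best-supported principal transcript. Copies were found with blastn 2.17.0. The members and lists were chosen with earlier results of these data known. Named members are the 13 mitochondrially encoded genes, the 3 smallest p and 2 highest CPM per kb of each complex, known isoforms and regulators, members not tested, and the 2 smallest p of each other list, of which not all are printed. Genes named outside this rule were picked with their values in view.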

Additional observations from a re-analysis of the deposited data

How the results depend on the processing

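The sign of a called subunit did not change under any of the 17 alternatives. mt-Atp6 passed in 12 of them, with log2 fold changes between -0.92 and -0.82, and mt-Cytb in 10, between -0.75 and -0.55. The number of subunits called lower, all mitochondrially encoded, was 2. It was 3 with upper-quartile scaling and 3 with limma voom, where 1.31% and 1.34% of all genes were called lower. In voom with a random effect for the label number it was 4, where 1.60% of all genes were called lower. The correlation estimated within label numbers was -0.0618, so that fit made no allowance for libraries of a shared number being alike. The number called lower was 0 with the label suffix as a term and 0 with shared-number libraries summed. It was 5 with DESeq2 and 5 with a filter of 10 CPM in 3 libraries. The 5 added mt-Atp8, mt-Co2 and mt-Co3 (adjusted p = 0.00087, 0.002 and 0.0067 in DESeq2), where DESeq2 called 3.53% of all genes lower and the filter of 10 CPM 3.40%. Leaving out a library in turn gave 0 to 2 called lower, 0 to 1 called higher (mt-Co1, without Yoda1 6) and 0 to 3 mitochondrially encoded subunits called. These fits called 0.0645% to 1.57% of all genes, against 0.0225% with the suffix as a term and 0.00699% with libraries summed. No alternative called a nuclear subunit, and the nuclear median ran from -0.13 to 0.12. Without its highest member, the log2 ratio of the mitochondrial sum was 0.22 for complex I, -0.53 for complex IV, -1.11 for complex V and -0.43 over all (-0.02, 0.20, -0.88 and -0.14 with it). For the genes printed from other lists the alternatives were added after seeing the data: Ucp2 also missed with no filter (adjusted p = 0.0579), and Ptcd2, Elac2 and Cox18 passed with DESeq2 (0.00559, 0.0212 and 0.0297), Ptcd2 also with voom (0.048), voom with the random effect (0.0398) and the filter of 10 CPM (0.0486). The causes were not tested. No paired analysis was possible because the groups share no replicate number (4 to 6 with Yoda1, 1 to 3 with DMSO). Depth limits mt-Nd3, mt-Nd4l and Cox7a1, with 168, 249 and 287 counts in all.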
